A study of Rattus norvegicus with 2 samples.

Results

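HDL carry miRNAs, and endothelial and other vascular miRNAs are among those discussed as HDL cargo. Described here are 9 mature miRNAs, picked by name for being enriched in endothelial cells or abundant in most cells, on HDL kept with or without beta cells. They are miR-126a-3p, miR-126a-5p, miR-221-3p, miR-222-3p, miR-21-5p, miR-22-3p, miR-130a-3p, miR-130b-3p and miR-130b-5p. All 9 were among the 406 rat miRNAs listed and 8 were detected with 1 read or more. A minimum of 5 reads in either library was met by 7 of them and by 81 miRNAs in all.

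INS-1 832/13 cells (INS-1 cells below), a line from a rat insulinoma, serve as a beta cell model. Native HDL (nHDL), isolated from human plasma, was added at 1 mg/mL to serum-free medium at 3 mM glucose and kept for 24 h with INS-1 cells (INS-1-nHDL) or without any cells (cf-nHDL), then re-isolated by apoA-I immunoprecipitation according to the labels (the paper names this or size exclusion chromatography) before small RNA sequencing (sRNA-seq). Each condition is 1 library made from a pool of 3 samples, at a depth of 6585 (cf-nHDL) and 18008 (INS-1-nHDL) miRNA reads. No difference therefore has a replicate check and no test of the conditions was possible, so all intervals below are 95% intervals of counting error between these libraries only. PCR reads without molecular identifiers are not independent molecules. Reads were matched to rat sequences, and whether a read came from the human nHDL or from the rat cells was not analysed here.

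A miRNA binds target mRNAs mainly through its seed, the bases 2 to 8 from its 5′ end, and miRNAs with the same seed share many predicted targets. miR-126 lies in an intron of Egfl7, an endothelial gene, and is the best known endothelial miRNA. miR-221 and miR-222 are a clustered pair expressed in endothelial and smooth muscle cells, with Kit and Cdkn1b among their known targets. miR-21 and miR-22 are abundant in most tissues, and miR-130a has been studied in angiogenesis. By the RefSeq gene table of the rat assembly GRCr8, miR-126a overlaps Egfl7, miR-221 and miR-222 overlap 2 lncRNA genes, and miR-130b overlaps the protein-coding gene 2610318N02Rikl.

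The mature sequences are given with the seed in capitals, to show which members could act on the same targets (RefSeq, GRCr8). All 9 equal the sequences in the authors' files.
miR-21-5p: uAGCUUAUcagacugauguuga
miR-22-3p: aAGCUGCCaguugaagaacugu
miR-130a-3p: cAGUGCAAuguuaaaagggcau
miR-130b-3p: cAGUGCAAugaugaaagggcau
miR-130b-5p: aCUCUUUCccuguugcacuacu
miR-221-3p: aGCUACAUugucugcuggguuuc
miR-222-3p: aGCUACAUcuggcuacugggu
miR-126a-5p: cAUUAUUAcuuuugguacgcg
miR-126a-3p: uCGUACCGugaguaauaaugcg

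miR-221-3p and miR-222-3p share the seed GCUACAU and their first 8 bases, and differ from each other by 6 edits over the rest. miR-130a-3p and miR-130b-3p share the seed AGUGCAA and differ by the substitutions U11A and A13G, counted from the 5′ end of miR-130a-3p. These 2 edits are the smallest distance between any member and another listed miRNA, and the authors allowed 1 mismatch in alignment. The other members were at least 6 edits from any other listed miRNA, and no member had reads divided with a near-identical miRNA. In the coordinates of the authors' files (build rno5 in the paper's spelling), miR-222-3p (chrX:4474795-4474815) and miR-221-3p (chrX:4475359-4475381) lie 543 bases apart on the plus strand.

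Almost all reads of the 9 miRNAs came from the broadly expressed miR-21-5p and miR-22-3p and from miR-130a-3p, with 836 of 851 reads (98.2%) on cf-nHDL against 1059 of 1095 reads (96.7%) on INS-1-nHDL. The defining endothelial miRNA, miR-126a, had 5 reads over both arms in each library, or 0.0759% and 0.0278% of all miRNA reads and 0.0787% and 0.0736% of those other than miR-375-3p. By reads, then, this was mainly a broadly expressed set, and the other 6 miRNAs, the endothelial ones included, had 15 and 36 reads in sum. Neither condition had endothelial cells in culture, so these reads do not measure a number of such cells there. The origin of the reads was not tested. Together the 9 miRNAs took 12.9% of miRNA reads on cf-nHDL, with a Wilson interval of 12.1 to 13.8%, against 6.08% (5.74 to 6.44%) on INS-1-nHDL. miR-375-3p, a beta cell miRNA, took 62.3% of the INS-1-nHDL reads, and without it the 9 miRNAs held 13.4% and 16.1% (15.3 to 17.0%).

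**Figure D1:**
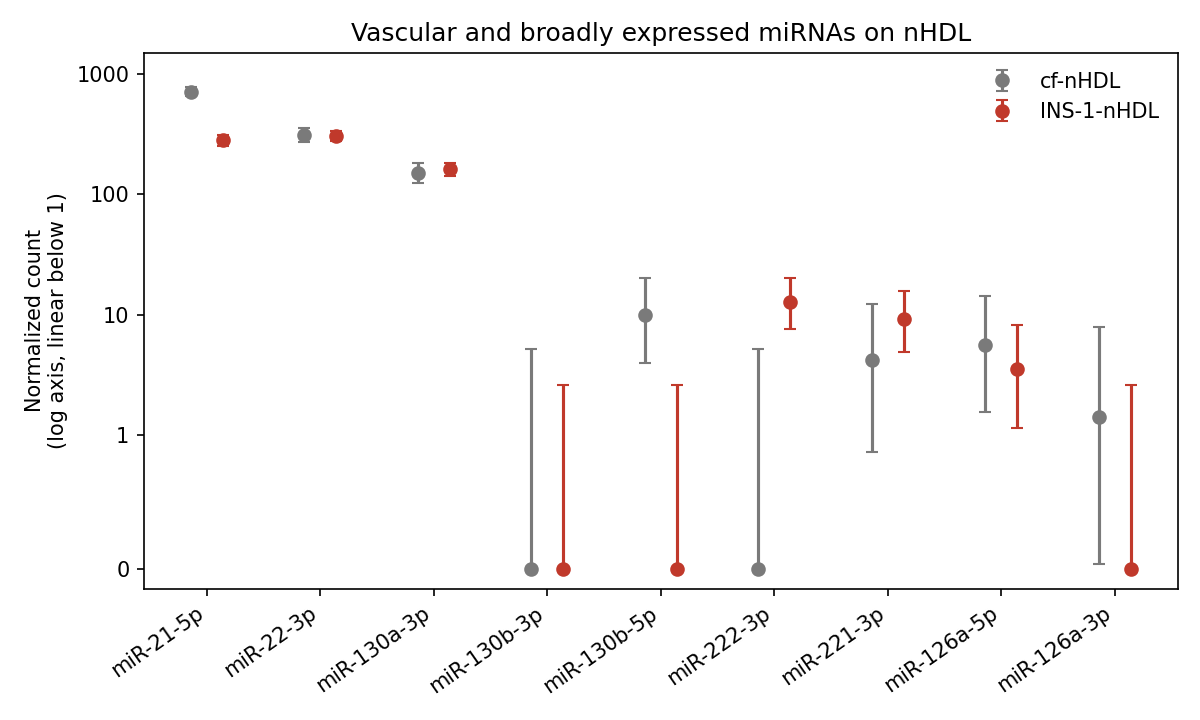
Normalized counts (reads divided by DESeq2 size factors, log axis that is linear below 1) of the 9 miRNAs on cf-nHDL (grey) and INS-1-nHDL (red), 1 library each, with exact Poisson 95% intervals. miR-21-5p falls from 716 to 281 normalized counts, miR-22-3p and miR-130a-3p lie at similar levels in both libraries under these size factors, and the other 6 stay below 13.

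Fold changes are ratios of normalized counts on INS-1-nHDL over cf-nHDL, with exact intervals given the sum of both counts. The size factors of 0.71 and 1.41 rest on the 56 of the 81 miRNAs with reads in both libraries, and a miRNA with 1.98 times the cf-nHDL reads on INS-1-nHDL thus has a fold change of 1. The choice of scaling matters here, since total miRNA reads lower every fold change to 0.726 of its value and total reads without miR-375-3p raise it to 1.86 times. Ratios between members within a library do not depend on it.

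miR-21-5p, a miRNA abundant in many cell types, had 508 reads on cf-nHDL against 396 on INS-1-nHDL, at rank 4 and rank 5 among all miRNAs. It was lower on INS-1-nHDL, with a fold change of 0.393 (0.344 to 0.449). It stayed lower at 0.285 (0.249 to 0.326) under total miRNA reads and at 0.730 (0.638 to 0.834) without miR-375-3p. Its mature sequence lies at chr10:76197098-76197119 on the plus strand of rno5.

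miR-22-3p, another miRNA found in most tissues, had 221 reads on cf-nHDL against 435 on INS-1-nHDL, and moved from rank 9 to rank 4. Its normalized counts were 311 and 309, a fold change of 0.992 (0.842 to 1.17). Its direction turned with the scaling, at 0.720 (0.611 to 0.850) under total miRNA reads and 1.84 (1.56 to 2.18) without miR-375-3p, so no direction can be given for miR-22-3p from these libraries. It lies at chr10:62013698-62013719 on the plus strand.

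miR-130a-3p had 107 reads on cf-nHDL against 228 on INS-1-nHDL, at rank 11 and rank 8. Its normalized counts were 151 and 162, a fold change of 1.07 (0.850 to 1.36). As with miR-22-3p, the value lay below 1 under total miRNA reads, at 0.779 (0.617 to 0.990), and above it without miR-375-3p, at 1.99 (1.58 to 2.53). It lies at chr3:78661709-78661730 on the minus strand.

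**Figure D2:**
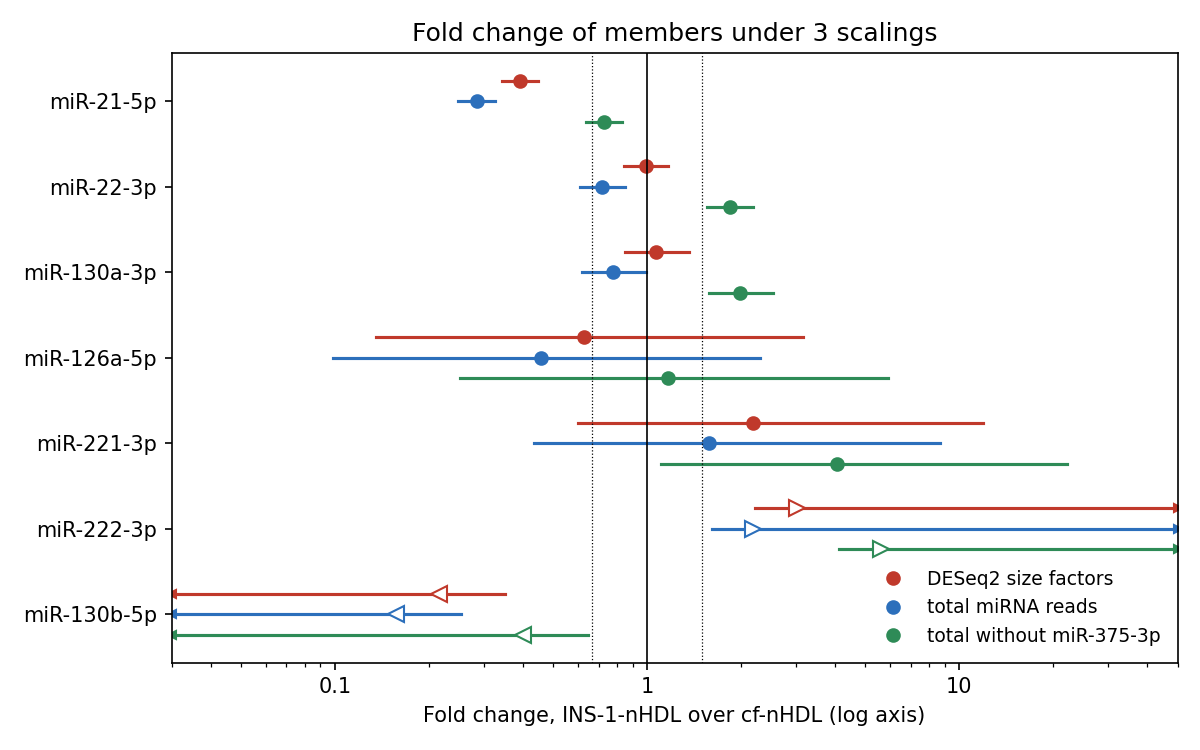
Fold change on INS-1-nHDL relative to cf-nHDL (log axis) for the 7 members with 5 reads or more in either library, under DESeq2 size factors (red), total miRNA reads (blue) and total miRNA reads without miR-375-3p (green). Lines are exact 95% intervals, open triangles are bounds against 3 reads where a library had 0, arrows mark open ends, and dotted lines mark 1.5 and 1/1.5. miR-21-5p lies below 1 under each scaling, miR-22-3p and miR-130a-3p lie on either side of it, and miR-222-3p lies above 1.5 and miR-130b-5p below 1/1.5 under each.

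Relative to each other, the abundant members differed in balance between the libraries. On cf-nHDL, miR-21-5p had 2.30 reads for each read of miR-22-3p (1.96 to 2.70). On INS-1-nHDL the ratio was 0.910 (0.792 to 1.05), an interval that holds 1, so the order of the pair could not be told at this depth. The ratio on INS-1-nHDL was 0.396 times that on cf-nHDL (exact conditional interval 0.320 to 0.490).

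The ratio of miR-21-5p to miR-130a-3p likewise went from 4.75 (3.85 to 5.90) to 1.74 (1.47 to 2.05), a change of 0.366 times (0.278 to 0.480). The ratio of miR-22-3p to miR-130a-3p was 2.07 (1.63 to 2.63) on cf-nHDL against 1.91 (1.62 to 2.25) on INS-1-nHDL. Its change of 0.924 times (0.690 to 1.23) holds 1, and the interval leaves room for a decrease of up to 1.45-fold or an increase of up to 1.23-fold. miR-21-5p was thus lower on INS-1-nHDL relative to both miR-22-3p and miR-130a-3p, whatever the scaling, and no change between the latter was detectable at these counts. Within the 9 miRNAs, miR-21-5p made up 59.7% of reads on cf-nHDL against 36.2% on INS-1-nHDL, and miR-22-3p 26.0% and 39.7%.

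**Figure D3:**
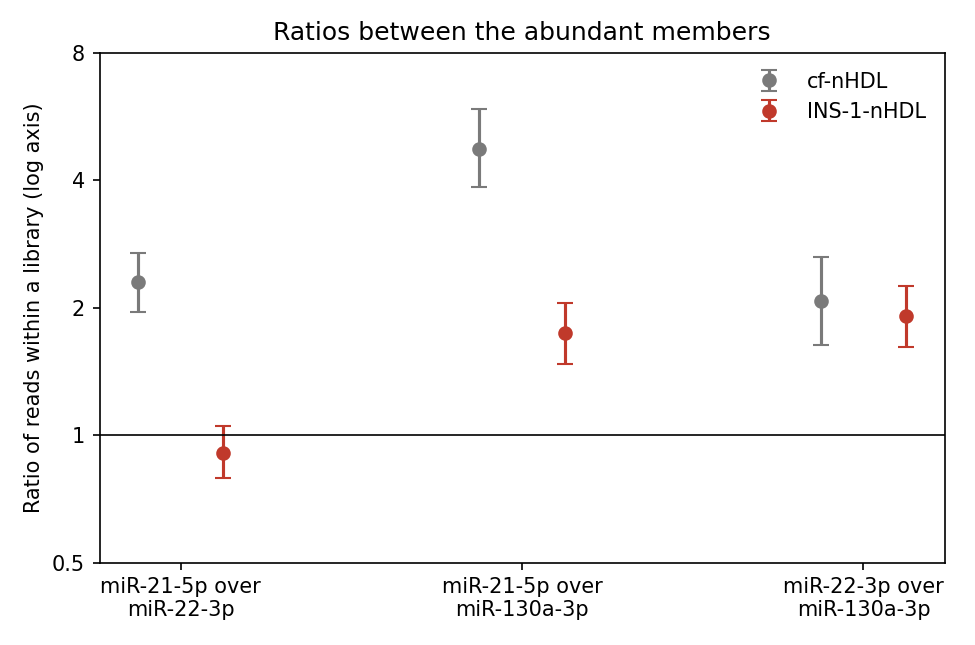
Ratios of reads between the abundant members within each library (log axis), on cf-nHDL (grey) and INS-1-nHDL (red), 1 library each, with exact 95% intervals. Both ratios with miR-21-5p on top are lower on INS-1-nHDL with intervals that do not overlap, and the ratio of miR-22-3p to miR-130a-3p is 2.07 and 1.91 with overlapping intervals.

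Markers of the source cells differed between the libraries in the same comparison. Of 6 beta cell and INS-1 markers listed, miR-375-3p, miR-182 and miR-183-5p had reads, summing to 244 on cf-nHDL against 11378 on INS-1-nHDL. miR-375-3p alone gave 231 and 11219 of these, and the rest were 13 and 159 reads, while miR-96-5p, miR-9a-5p and miR-124-3p were at 0 in both. Of 7 red cell, platelet and leukocyte markers listed, 5 had reads, summing to 2544 and 756, or 38.6% and 4.20% of all miRNA reads and 40.0% and 11.1% of those other than miR-375-3p. miR-16-5p, which many other cells also express, gave 2486 and 741 of these reads, and the other 4 gave 58 and 15. All 5 of these, namely miR-16-5p, miR-451-5p, miR-150-5p, miR-142-5p and miR-223-3p, were below 1/1.5-fold, as were 39.5% of all 81 miRNAs. miR-223-3p, with 7 reads on cf-nHDL against 0 on INS-1-nHDL, passed the read minimum only through cf-nHDL. Its place below the threshold thus gives no support to a direction. miR-144-3p and miR-142-3p were at 0. The part of either set of cells in the levels of miR-21-5p, miR-22-3p or miR-130a-3p was not tested.

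The endothelial pair miR-221-3p and miR-222-3p was low in both libraries and had more reads on INS-1-nHDL. miR-222-3p had 0 reads on cf-nHDL, where 3 reads would be 0.0456% of miRNA reads and the Wilson interval ends at 0.0583%, and 18 reads on INS-1-nHDL (Wilson interval 0.0632 to 0.158% of miRNA reads). With 3 reads put in place of 0, its fold change was 3.02, and the exact interval started below this, at 2.22. As miR-222-3p passed the read minimum only through INS-1-nHDL, where it was high, this value describes its reads and gives no support to a direction. The value was 2.19 under total miRNA reads and 5.62 without miR-375-3p.

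With 3 reads on cf-nHDL against 13 on INS-1-nHDL, miR-221-3p had a fold change of 2.18 (0.600 to 11.9). The interval holds 1. Under total miRNA reads the value was 1.58 (0.435 to 8.67), and without miR-375-3p it was 4.06 (1.11 to 22.2). Like miR-222-3p, miR-221-3p passed the read minimum only through INS-1-nHDL. Summed by their common seed, the pair had 3 and 31 reads, a sum formed after the counts were seen and given as a description.

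Between the members of the pair, miR-221-3p held 3 of 3 reads on cf-nHDL (exact interval 29.2 to 100%) and 13 of 31 on INS-1-nHDL (41.9%, 24.5 to 60.9%). The balance of miR-221-3p to miR-222-3p on INS-1-nHDL was at most 2.05 times that on cf-nHDL by its exact interval, which starts at 0, so a change in balance was not detectable at this depth. The other arms of this cluster, miR-221-5p and miR-222-5p, were at 0 in both libraries.

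The arms of miR-126a could not be compared in more than a handful of reads. With 4 reads on cf-nHDL against 5 on INS-1-nHDL, miR-126a-5p had a fold change of 0.630 (0.136 to 3.17), which was 1.17 (0.252 to 5.90) without miR-375-3p. miR-126a-3p had 1 read on cf-nHDL against 0 on INS-1-nHDL, for which no fold change is given. The 5p arm thus had more reads than the 3p arm in each library.

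As a share of both arms, miR-126a-3p held 1 of 5 reads on cf-nHDL (exact interval 0.505 to 71.6%) and, on INS-1-nHDL, 0 of 5, whose interval reaches 52.2%. The interval for the change of the arm ratio ran from 0 to 39.0 times. At this depth neither the dominant arm nor a change between the arms can be given. miR-126a-5p (chr3:9402744-9402764) and miR-126a-3p (chr3:9402781-9402802) lie 16 bases apart on the plus strand of rno5, as arms of the same hairpin.

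Of miR-130b, a paralog of miR-130a, few reads were found. Its hairpin is printed with the mature arms in capitals, 5p first, since the reads fell on the 5p arm alone (RefSeq, GRCr8, chr11:97384380-97384461, plus strand).
miR-130b hairpin: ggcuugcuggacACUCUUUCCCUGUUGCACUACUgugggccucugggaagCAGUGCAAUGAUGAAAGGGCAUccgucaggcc

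miR-130b-5p had 7 reads on cf-nHDL against 0 on INS-1-nHDL, at least 4.63-fold lower on INS-1-nHDL against 3 reads. The exact interval of its fold change ended at 0.350, or at 0.649 without miR-375-3p. It passed the read minimum only through cf-nHDL, where it was high, so the same limit holds as for miR-222-3p. miR-130b-3p, which shares its seed with miR-130a-3p, had 0 reads in both libraries. Set beside miR-130a-3p, it held 0 of 107 reads on cf-nHDL against 0 of 228 on INS-1-nHDL, where 3 reads would be 2.80% and 1.32% of the pair. By exact intervals, miR-130a-3p held at least 96.6% and 98.4% of the pair.

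The other miRNAs listed with the seed AGUGCAA, miR-301a-3p and miR-301b-3p, also had 0 reads, so that miR-130a-3p carried every read of this seed. Of the other arms and seed relatives of the members, 7 of 11 names were listed and 2 had reads, which were miR-21-3p and miR-22-5p with 1 read each on cf-nHDL against 0 on INS-1-nHDL. The dominant arm held 99.9% of the reads of miR-21 and 99.8% of those of miR-22 over both libraries. This was common in these data, since 26 of the 29 hairpins with both arms listed and at least 20 reads over both libraries had over 99% of their reads on the dominant arm.

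Of the 7 members past the read minimum, miR-221-3p and miR-222-3p were above 1.5-fold, while 49.4% of all 81 miRNAs were, counting a miRNA with 0 reads in 1 library as past the threshold. miR-21-5p, miR-126a-5p and miR-130b-5p were below 1/1.5-fold, against 39.5% of all 81. The whole interval lay above 1.5 for miR-222-3p (30.9% of all 81) and below 1/1.5 for miR-21-5p and miR-130b-5p (29.6%). Under total miRNA reads the same members were on each side, beside 44.4% and 42.0% of all 81 by the ratio and 16.0% and 35.8% by the whole interval. miR-126a-5p, miR-221-3p and miR-222-3p passed the read minimum only through INS-1-nHDL and miR-130b-5p only through cf-nHDL, so these counts describe the members and give no support to a direction.

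The median fold change was 0.992 for the 7 members, with bounds taken for those at 0 reads, and 1.17 for all 81. Without miR-375-3p in the totals, 4 members were above 1.5-fold (59.3% of all 81) and 1 was below 1/1.5-fold (32.1%), and by the whole interval 3 were above (48.1%) and 1 below (21.0%). The members thus lay on both sides of 1. Under the size factors all 81 miRNAs, the members included, ran from 0.0210 to 24.5. Summed over the 9, reads were 851 and 1095, a fold change of 0.649 (0.592 to 0.710), which turned to 1.20, with an interval above 1, without miR-375-3p.

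**Figure D4:**
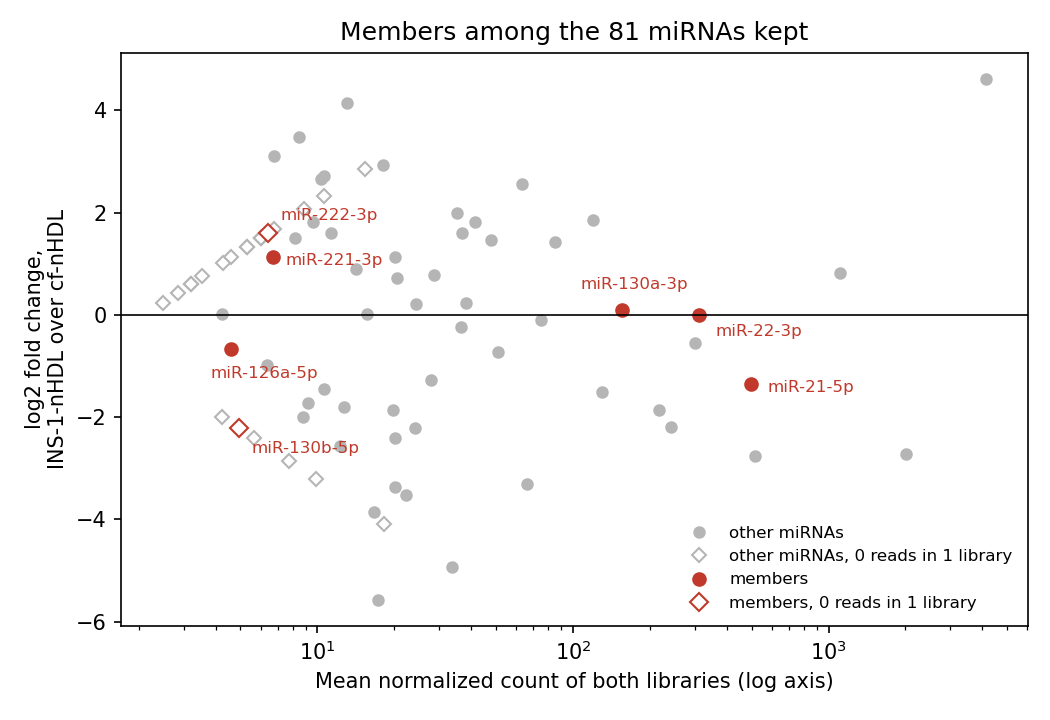
log2 fold change on INS-1-nHDL relative to cf-nHDL, against the mean normalized count of both libraries (log axis) for the 81 miRNAs with 5 reads or more in either library, members in red. Open diamonds had 0 reads in 1 library and are set at their bound against 3 reads. miR-21-5p, miR-22-3p and miR-130a-3p are among the abundant miRNAs, at -1.35, -0.01 and 0.10 on the log2 scale.

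Among the 23 other miRNAs with at least 50 reads over both libraries, those closest to miR-21-5p in log2 fold change were miR-423-5p (28 and 23 reads, a fold change of 0.414) and miR-27a-3p (136 and 95 reads, 0.352). Closest to miR-22-3p were miR-92a-3p (55 and 102 reads, 0.935) and miR-30e-5p (28 and 47 reads, 0.846). Closest to miR-130a-3p were miR-181a-5p (16 and 37 reads, 1.17) and miR-25-3p (25 and 58 reads, 1.17). The likeness is a difference of at most 0.23 on the log2 scale over 2 libraries, and the reads of miR-27a-3p carried decimals before rounding.

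In order of reads, cf-nHDL held miR-21-5p above miR-22-3p above miR-130a-3p above miR-130b-5p, each step larger than its counting error. The steps from miR-130b-5p through miR-126a-5p and miR-221-3p to miR-126a-3p, with 7, 4, 3 and 1 reads, were not. On INS-1-nHDL, miR-22-3p and miR-21-5p were not separable, both lay above miR-130a-3p, and miR-130a-3p lay above miR-222-3p, while the steps from miR-222-3p through miR-221-3p to miR-126a-5p, with 18, 13 and 5 reads, were within counting error.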

How the data were processed

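The authors trimmed reads with Cutadapt and, after a length filter, mapped them to the rat genome (written rno5) with Bowtie 1.1.2, allowing 1 mismatch. The deposited values are expected counts for each mature miRNA, not normalized. The authors' second table repeats the rounded counts for 81 miRNAs beside a DESeq2 comparison (base mean, log2 fold change, standard error, p-values), whose columns were not used. The labels name a Qiagen miRNeasy kit, which the paper's methods give beside a Norgen kit, and an Illumina TruSeq RNA kit, where the methods give TruSeq small RNA kits.

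Expected counts were rounded to whole reads, and a miRNA was kept if either library had 5 or more. Size factors were the median of ratios of DESeq2 1.42.0 in R 4.3.3. Fold changes have exact (Clopper-Pearson) intervals given the sum of both counts, changes of within-library ratios have exact conditional odds ratio intervals, shares of a library have Wilson intervals, and shares within a pair of miRNAs have exact (Clopper-Pearson) intervals (scipy 1.17.1). Where a library had 0 reads, 3 reads took their place and the fold change is called a bound. The exact interval of such a fold change can reach past this bound towards 1. No fold change is given for miRNAs with 3 reads or fewer in each library. A miRNA with 0 reads in 1 library counts as past the 1.5-fold threshold. With 1 library per condition no p-value was computed. The computations were tested on simulated data.

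The members and lists were chosen with earlier results of these data known. The ratios to miR-130a-3p of miR-21-5p and miR-22-3p and the sum of miR-221-3p and miR-222-3p were added after the counts were seen. Named miRNAs are the 9 members, the miRNAs of the lists of relatives, vascular miRNAs and cell markers, miR-375-3p, and the pair closest in log2 fold change to each abundant member. Alternatives were edgeR 4.0.16 TMM, total miRNA reads with and without miR-375-3p, size factors restricted to miRNAs of 10 or more reads in each, other read minimums, pseudocounts and unrounded counts.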

Additional observations from a re-analysis of the deposited data

How the results depend on the processing

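No paired analysis was possible because there was 1 library per condition, which also left none to leave out. A change of scaling shifts every log2 fold change equally, by -0.46 under total miRNA reads and 0.89 without miR-375-3p. In that order, in place of the values under the size factors, miR-21-5p was at 0.285 and 0.730, miR-22-3p at 0.720 and 1.84, miR-130a-3p at 0.779 and 1.99, and the summed members at 0.471 and 1.20, which reversed. Without miR-375-3p the bound of miR-222-3p was 5.62, the share of the members on INS-1-nHDL 16.1%, and 4 members were above 1.5-fold and 1 below 1/1.5-fold, in place of 2 and 3. Another read minimum changes which miRNAs are counted and, with them, the size factors. With 20 or more reads in either library, 0 members were above and 1 below, and of all miRNAs 23 were above and 19 below, in place of 40 and 32. With at least 10 reads 1 member was below, and with at least 1 read 51 of all miRNAs were. When the whole interval had to pass, 1 member and 25 of all miRNAs were above. TMM and size factors restricted to miRNAs of 10 or more reads in each changed no count of members, and TMM put miR-22-3p at 1.02 in place of 0.992. A pseudocount of 1 put miR-222-3p at 13.8 and miR-130b-5p at 0.0921 in place of their bounds, and unrounded counts gave the members the values reported. A change of the miR-130a-3p to miR-130b-3p ratio could not be computed, since miR-130b-3p had 0 reads. For 6 of the 9 miRNAs, reads of 18 or fewer limit every statement.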

Other observations

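Other miRNAs known from the vessel wall and from inflammation were nearly absent from both libraries. Of 14 such names, 13 were listed, 4 had reads, and 2 passed the read minimum, with 14 reads in sum on cf-nHDL against 15 on INS-1-nHDL. miR-10b-5p, a relative of the abundant miR-10a-5p, had 10 and 6 reads, a fold change of 0.302 (0.0903 to 0.918), which became 0.562 (0.168 to 1.71) without miR-375-3p in the totals. miR-143-3p, a smooth muscle miRNA, had 3 and 6 reads, a fold change of 1.01 (0.215 to 6.23), which became 1.87 (0.400 to 11.6) without miR-375-3p. miR-146a-5p, a miRNA of inflammatory signalling, had 1 and 2 reads, and miR-146b-5p 0 and 1. The other 9 listed, among them miR-145-5p, miR-155-5p, miR-199a-5p and miR-214-3p, were at 0 in both libraries, where 3 reads would be 0.0456% and 0.0167% of miRNA reads. The hepatocyte miRNA miR-122-5p was at 0 in both libraries as well, and of the muscle markers miR-133a-3p was listed, with 11 and 8 reads.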
